A study of Mus musculus with 3 samples.

Results

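Ebf1, Ebf2, Ebf3, Ebf4, Lhx2, Ldb1 and Myt1l are 7 of the 32285 genes counted in single-cell RNA sequencing of the mouse vomeronasal organ (VNO), the paired chemosensory organ of the nasal septum. They were chosen by name, as regulators of neuronal differentiation, and were described from progenitor to mature vomeronasal sensory neuron (VSN) and in the other cell types of the tissue. Each of the 3 libraries came from male mice of a mixed C57 BL/6J and 129P2/OlaHsd background and was prepared from enzyme-dissociated, frozen suspensions with the 3' chemistry of 10x Genomics. The P10 control came from an OMPCre heterozygous VNO at postnatal day 10 and carries Cre without the transgene. The P10 mutant came from an OMPCreR26AP2e double heterozygous VNO of the same age, and the 3-month mutant from an adult VNO of that same genotype at 3 months. All groups thus carry OMPCre, and in the mutants Cre from the Omp locus switches on a transgene at Rosa26 in cells that have begun to express Omp. The transgene encodes AP-2ε, the product of Tfap2e and a transcription factor of basal VSNs. Cells before that stage are not targeted by the transgene. Each group was a single library without replicates. A difference of genotype at P10, or of age between the mutants, cannot be told apart from a difference between libraries, and no p-value or standard error was computed.

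Ebf proteins (early B cell factors) are helix-loop-helix transcription factors with a zinc-coordinating DNA-binding domain. They were found both as regulators of olfactory marker genes and as factors that B cell precursors need. Lhx2 is a LIM homeodomain factor required for olfactory neurons to develop and express odorant receptors, and Ldb1 is the adaptor that binds LIM domains and links such factors into complexes. Myt1l is a zinc finger protein that represses non-neuronal genes in neurons. VSNs arise from dividing progenitors, pass through Neurog1- and Neurod1-expressing precursors and Gap43-expressing immature neurons, and mature into apical cells with V1R receptors or basal cells with V2R receptors.

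All 7 genes were matched by identifier to GENCODE M21 on GRCm38. Ebf1 lies at chr11:44617317-45008091 on the plus strand, Ebf2 at chr14:67233292-67430918 (plus), Ebf3 at chr7:137193673-137314445 (minus) and Ebf4 at chr2:130295169-130370481 (plus). Lhx2 lies at chr2:38339281-38369733 (plus), Ldb1 at chr19:46031570-46045214 (minus) and Myt1l at chr12:29528384-29923213 (plus). No annotated gene overlapped any of them on the same strand, so their same-strand reads had no other gene to be assigned to.

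RefSeq promoter windows (250 bases before to 50 after a start site, GRCm38.p6) were found for 6 of the 7 genes. Ebf2 had no entry. The windows were searched on both strands for 3 motifs, the EBF palindrome, the E-box CAGATG that proneural factors such as Neurog1 and Neurod1 can bind, and the homeodomain core TAATTA. The EBF palindrome, an inverted repeat with a short spacer, was in 0 of the 14 windows of the members and in 0.904% of all 32851 windows. CAGATG was in 4 of 14 against 17.2% of all, with 3 of those 4 at Myt1l and 1 at Lhx2. TAATTA was in 1 of 14, at Myt1l, against 5.29% of all. Myt1l is shown because it holds most of these matches and because in the control its level differed more between dividing and postmitotic Neurod1-expressing precursors than that of Ebf1, Ebf2, Ebf3, Lhx2 or Ldb1. Its first 2 stretches are given, and the other lies in an exon of Myt1l itself. The capitals mark CAGATG or, on the other strand, CATCTG.
Myt1l start site 1, chr12:29528211-29528270, plus strand, motif 146 bases before the start site, in a stretch that overlaps an exon of the antisense gene Gm20208: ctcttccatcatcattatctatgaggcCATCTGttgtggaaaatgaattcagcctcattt
Myt1l start site 2, chr12:29533189-29533248, plus strand, motif 169 bases before the start site, in no annotated exon: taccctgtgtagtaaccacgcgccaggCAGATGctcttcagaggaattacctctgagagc
A match says only that these letters are in the window.

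Barcodes with 200 to 9000 genes and at most 10% mitochondrial UMIs (unique molecular identifiers, 1 per captured transcript) were kept, which left 4795 of 8202 barcodes (P10 control), 3956 of 8864 (P10 mutant) and 6960 of 10293 (3-month mutant). Median depth of the kept cells was 10236, 10766.5 and 5010.5 UMIs. The neuronal lineage held 591, 250 and 147 of them (988 of 15711), with 56, 29 and 10 progenitors, 98, 39 and 52 precursors, 266, 121 and 31 immature neurons and 171, 61 and 54 mature neurons. Among the mature cells, 102, 33 and 19 were V1R and 26, 17 and 34 were V2R cells, by at least 5 receptor UMIs of which at least 80% came from 1 family. Of the 897, 379 and 293 cells in neuronal clusters, 279, 122 and 53 were left out because they also carried marker RNA of another cell type, and 82 of the 3-month cells because they were too shallow to name. Between 4 and 9 kept barcodes were shared by any pair of libraries. Tfap2e, checked first, ran with the labels. In V1R cells it was at 0.617 CPM (the UMIs of the gene for every 1000000 UMIs of the pooled cells) in the control, against 690 at P10 and 272 at 3 months in the mutant libraries. The V2R cells of the P10 mutant stood apart in Gnai2, the G protein subunit of apical cells, at 1094 CPM against 310 (control) and 346 (3-month mutant).

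The members other than Ldb1 and Ebf4 were at a higher level in precursors than in progenitors and at a lower one in mature than in immature neurons, in each library. Lhx2 came to its highest level in precursors, while Ebf1 and Myt1l did so in immature neurons. In the control, 5 of 6 members with enough UMIs were at least 2-fold higher in precursors than in progenitors, where 16.3% of all genes tested were. The same 5 were so in the P10 mutant (14.6% of all genes), where Ebf1 (2.22) was at 1.84 as a mean over cells and 1.89 with mixed cells assigned by marker gates, and 4 of them, without Ebf1, in the 3-month mutant (13.0%). None of the 6 was at least 2-fold lower in the control, against 9.63% of all genes. All intervals given are exact 95% intervals and cover counting error only. Reads of 1 library are not replicates of an animal.

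**Figure D1:**
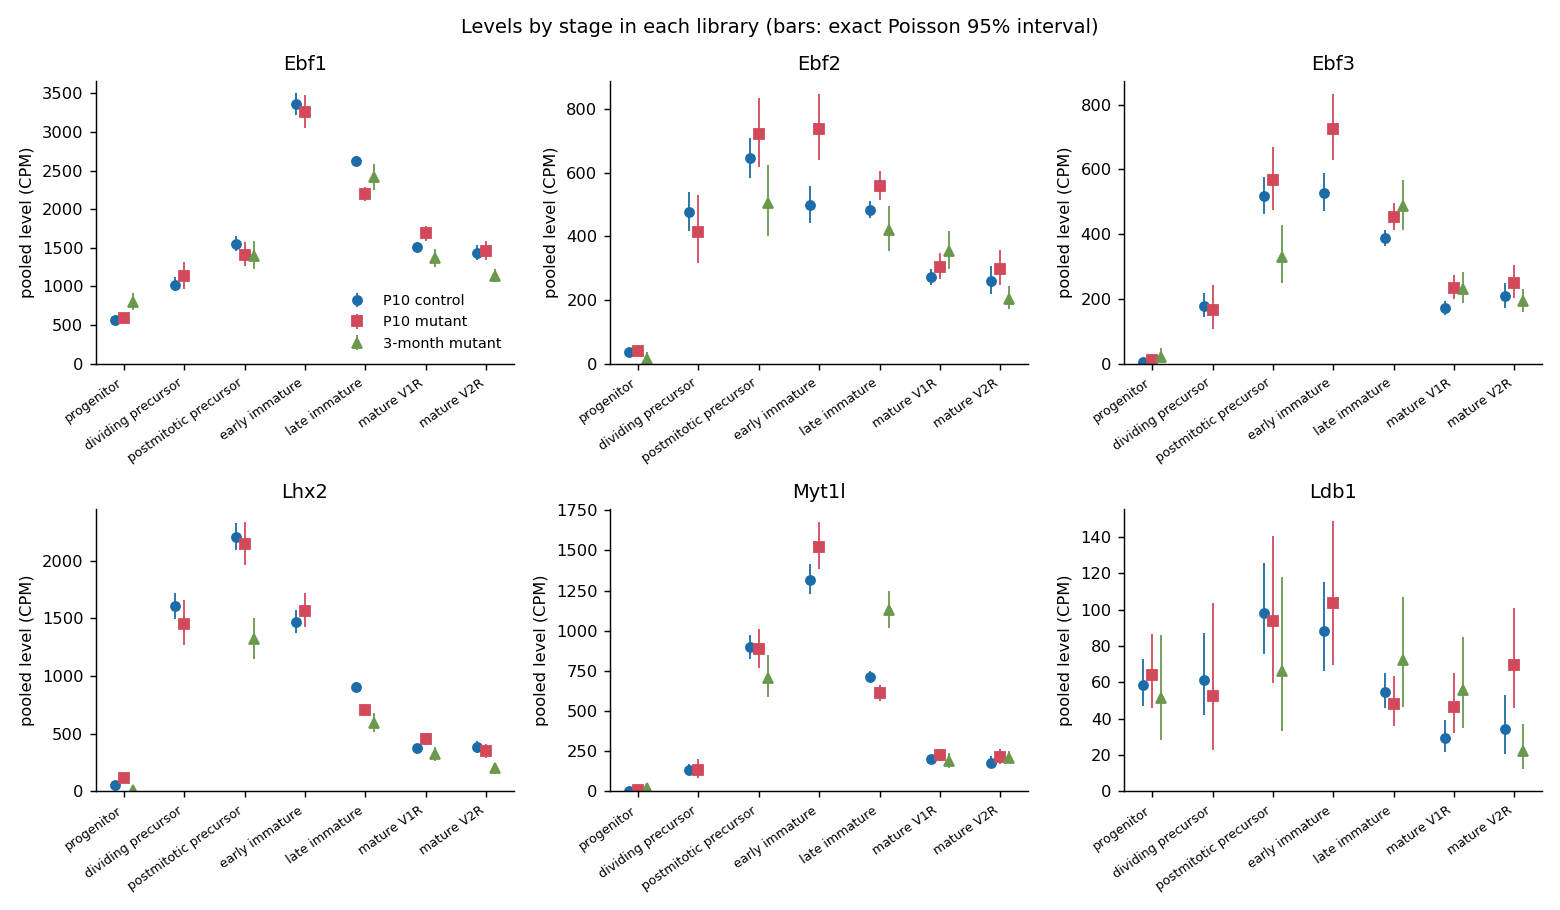
Pooled level (CPM, linear axes) of 6 members at 7 stages of the lineage in the P10 control, the P10 mutant and the 3-month mutant, with exact Poisson 95% intervals and only classes of at least 10 cells. Lhx2 is highest in postmitotic precursors (2209 CPM in the control), Ebf1 and Myt1l in early immature neurons (3362 and 1319 CPM), and Ldb1 stays within 22.2 to 104 CPM.

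Ebf1 was already present in progenitors. It was at 570 CPM [531–610] in those of the control, 588 [531–650] in those of the P10 mutant and 798 [695–911] in the 10 progenitors of the 3-month library. Without the cells of highest doublet score only 5 of these 10 remained, too few for a ratio of any member over progenitors in that library. Dividing precursors held 1024 and 1130 CPM in the P10 libraries, and postmitotic precursors 1552 [1457–1652], 1414 [1269–1570] and 1398 [1224–1589] in the 3 libraries. The level was highest in early immature neurons, at 3362 [3217–3512] (control) and 3263 [3055–3482] (P10 mutant), and then lower in late immature neurons, at 2629 [2565–2695], 2197 [2109–2288] and 2414 [2250–2586]. The 3-month library had only 2 early immature cells and is not given for that stage. Postmitotic precursors, named by cluster, held 4.68, 122 and 12 CPM of Mki67, a gene of dividing cells, in the 3 libraries. Their Sox2, a progenitor gene, was at 17.2, 73.3 and 198 CPM, so the class was less free of such RNA in the mutants than in the control.

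From progenitor to precursor the ratios of Ebf1 were 2.32 [2.13–2.53], 2.22 [1.94–2.54] and 1.43 [1.20–1.70] in the same order of libraries. From precursor to immature neuron the ratios were 2.10 [1.99–2.22], 1.85 [1.69–2.04] and 2.12 [1.87–2.41]. When stages were assigned by single marker gates instead of clusters, the control ratio was 1.52. From immature to mature neuron Ebf1 was lower, with ratios of 0.55, 0.68 and 0.52, and its mature level still lay above its progenitor level in each library.

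Ebf2 and Ebf3 had little RNA in progenitors and were present from the dividing precursor on. Ebf2 was at 35.4, 41.1 and 14.6 CPM in the progenitors of the 3 libraries, of which the last rests on 4 UMIs in 1 cell. Ebf3 was at 4.25, 10.7 and 22 CPM, on 6 to 7 UMIs a library, of which 50%, 57.1% and 100% came from 1 cell. In the dividing precursors of the control Ebf2 had already reached 476 CPM [418–540], against 646 [585–711] in postmitotic precursors. Ebf3 was at 179 CPM [144–220] in dividing and 516 [462–575] in postmitotic precursors. In CPM, a larger part of the difference of Ebf3 than of Ebf2 thus lay between dividing and postmitotic precursors. Precursor over progenitor, Ebf2 was 16.1-fold [12.1–22], 14.7-fold [9.83–22.7] and 29.5-fold [11.3–110] higher. Ebf3 was 86.6-fold [39.5–237], 38.7-fold [18.3–97.7] and 10.5-fold [4.57–29.5] higher.

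The level of Ebf2 differed little between precursors and immature neurons, with ratios of 0.85 [0.78–0.94], 0.99 [0.85–1.15] and 1.02 [0.81–1.30]. Ebf3 was at ratios of 1.13, 1.24 and 2.21 in the same comparison. In mature cells both were lower, Ebf2 at 0.55, 0.53 and 0.59 of its immature level and Ebf3 at 0.44 [0.39–0.49], 0.51 [0.45–0.58] and 0.41 [0.33–0.50]. The mature levels were 268, 314 and 261 CPM for Ebf2 and 181, 260 and 207 CPM for Ebf3.

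The make-up of the Ebf counts therefore shifted along the lineage. Ebf1 gave 93.3% of all UMIs of the 4 Ebf genes in control progenitors [91.4–94.9], 61.0% in dividing precursors [57.6–64.3] and 57.2% in postmitotic precursors [54.8–59.5]. Its share was 76.6% in early and 75.1% in late immature neurons, and 77.3% and 75.5% in V1R and V2R cells. In the P10 mutant the corresponding shares were 91.9%, 65.9%, 52.3%, 69.0%, 68.4%, 75.7% and 72.7%, with the lowest value at the same stage. Capture differs between genes, so these shares compare stages and not the abundance of the proteins.

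Lhx2 was scarce in progenitors and high from the dividing precursor on. Progenitors held 53.1 CPM [41.7–66.5] (control), 117 [92.6–147] (P10 mutant) and 11 [2.26–32.1] (3-month mutant). Of the 77 Lhx2 UMIs in P10 mutant progenitors, 51.9% came from 1 cell. Dividing precursors were already at 1603 [1494–1718] and 1452 [1267–1656] in the P10 libraries, and postmitotic precursors at 2209 [2096–2327], 2143 [1963–2334] and 1320 [1151–1506]. Precursor over progenitor, the ratio was 36.6 [29.1–46.7] (control) and 16 [12.7–20.5] (P10 mutant). It was 108 [36.8–529] at 3 months, where the progenitors had 3 UMIs.

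After the precursor stage Lhx2 was lower at each step. Early immature neurons held 1472 and 1567 CPM and late immature neurons 906 and 701 in the P10 libraries. Immature over precursor, its ratio was 0.52 [0.50–0.55], 0.47 [0.43–0.52] and 0.52 [0.44–0.62] in the 3 libraries, and mature over immature 0.38 [0.35–0.41], 0.50 [0.46–0.56] and 0.41 [0.34–0.49]. Mature neurons thus kept 383, 445 and 254 CPM.

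Myt1l came up later than Lhx2. Its progenitor level was 2.83, 6.09 and 18.3 CPM, on 4 to 5 UMIs in each library, and at 3 months 80% of them came from 1 cell. Dividing precursors were at 135 [105–171] and 131 [80.3–203] CPM in the P10 libraries, and postmitotic precursors at 899 [827–975], 884 [770–1010] and 708 [586–848]. Early immature neurons held the highest values, 1319 [1229–1414] and 1524 [1383–1676], and late immature neurons 714, 612 and 1129 CPM. Precursor over progenitor the ratios were 199 [77.2–732], 97.8 [37.7–362] and 23.4 [9.78–73.5]. Immature over precursor they were 1.48 [1.36–1.62], 1.35 [1.17–1.56] and 2.72 [2.23–3.35].

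No other member with at least 20 UMIs had as low a mature-to-immature ratio as Myt1l in these libraries, at 0.24 [0.21–0.26], 0.27 [0.24–0.31] and 0.18 [0.16–0.22], with mature levels of 197, 220 and 216 CPM. The intervals of these mature levels overlap between the 3 libraries.

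Ldb1 was at similar levels in progenitors, precursors and immature neurons, and lower in mature neurons in 2 of 3 libraries. It was at 58.7, 64.0 and 51.2 CPM in progenitors, 82.1, 78.0 and 58.3 in precursors, 61.5, 59.9 and 72.9 in immature and 31.1, 56.8 and 34.6 in mature neurons. Precursor over progenitor, its ratios were 1.40 [1.03–1.90] (2.03 as a mean over cells), 1.22 [0.74–1.98] and 1.14 [0.53–2.50]. Mature over immature they were 0.50 [0.38–0.66], 0.95 [0.68–1.32] and 0.47 [0.28–0.82], so the adaptor stayed measurable while its partner Lhx2 differed many times over between the same classes.

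Counted by the 2-fold rule, immature over precursor held 1 member higher in the control (Ebf1, with 15.8% of all genes higher) and 0 lower (13.9% of all genes). In the P10 mutant 1 was lower (Lhx2, 11.5% of all genes), and in the 3-month mutant 3 were higher (Ebf1, Ebf3 and Myt1l, 18.9% of all genes). Without the cells of highest doublet score, those 3 ratios in the 3-month mutant were 1.80, 1.63 and 1.88 and none reached 2-fold. Mature over immature, 3 members were lower in the control (Ebf3, Lhx2 and Myt1l) with 12.2% of all genes lower and 13.2% higher, 1 in the P10 mutant (Myt1l, 12.6%) and 4 in the 3-month mutant (with Ldb1, 13.8%). Postmitotic precursors of the 3-month library were shallow, with a median of 1705 UMIs against 12445 and 12851 in the P10 libraries. The part of depth in its ratios was not tested.

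Single cells were compared after thinning each to 2000 UMIs, and cells with fewer UMIs were left out. This kept 78 of the 98 control precursors, with 25 of 39 dividing ones among them, and 221 of 266 control immature neurons. Of the postmitotic precursors of the 3-month mutant it kept 18 of 45. Thinned shares thus describe the deeper cells of a class. Shares of cells with an Ebf1 UMI were 62.5% of progenitors and 96.4% of immature neurons in the control, against 2.86% of the immune cells of that library (macrophage-, monocyte-, dendritic-, neutrophil-, granulocyte progenitor- and T-like cells), which serve as background. Without thinning, and over all cells of these classes, the shares were 98.2%, 94.7% and 6.82%, with median depths of 22462.5, 12300.5 and 5790.5 UMIs. Lhx2 was found in 10.7% of thinned progenitors, 96.2% of precursors, 79.6% of immature neurons, 53.9% of V1R cells and 46.2% of V2R cells of the control, against 2.02% of immune cells. The P10 mutant gave 15.4%, 86.7%, 75.3%, 46.7% and 43.8%. Without thinning, 88.8% of all 98 control precursors held an Lhx2 UMI. Myt1l was found in 93.6% of thinned early immature neurons of the control and 86.4% of those of the P10 mutant. Ldb1 was found in 16.7% of thinned control precursors and in 6.90% of immune cells.

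UMIs of all 3 of Ebf1, Ebf2 and Ebf3 were found in the same thinned cell in 0 of 56 control progenitors, in 5 of 25 dividing precursors (20%), in 22 of 53 postmitotic precursors (41.5%) and in 22 of 47 early immature neurons (46.8%). The share was 33.9% in late immature neurons (59 of 174), 13.5% in V1R cells (12 of 89) and 26.9% in V2R cells (7 of 26). The P10 mutant had 6 of 18 postmitotic precursors (33.3%), 12 of 22 early immature neurons (54.5%) and 24 of 71 late immature neurons (33.8%). In the 3-month mutant these counts were 7 of 18 postmitotic precursors (38.9%) and 6 of 27 late immature neurons (22.2%). UMIs of several Ebf genes thus lay in the same cells. Thinning hides members of low level. Without it, 4 of the 56 control progenitors (7.14%) held all 3. No immune cell of the 594, 800 and 1686 thinned held all 3. All 13 thinned control precursors with an Ldb1 UMI also held Lhx2, as did 75 of all 78 thinned control precursors.

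**Figure D2:**
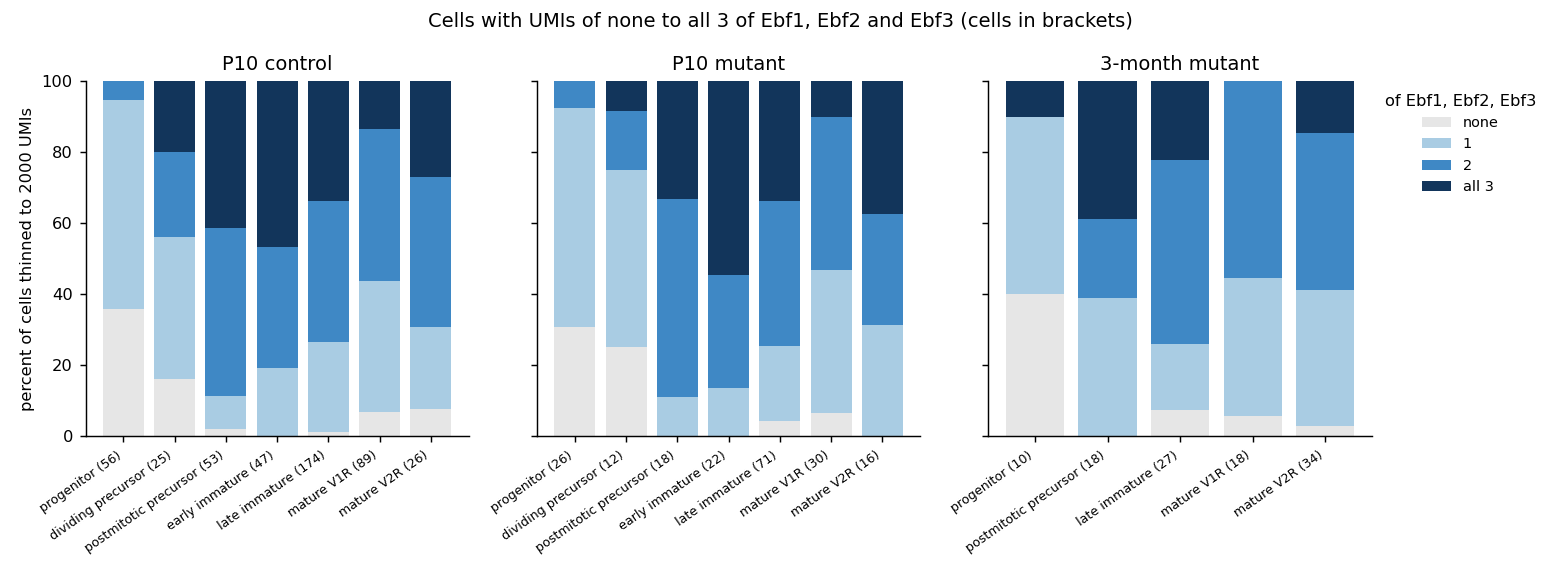
Percent of cells thinned to 2000 UMIs that held UMIs of none, 1, 2 or all 3 of Ebf1, Ebf2 and Ebf3, by stage and library, with the number of cells in brackets and only classes of at least 10 cells. The share with all 3 is 46.8% in early immature neurons of the control and 54.5% in those of the P10 mutant, and 13.5% and 10% in their V1R cells.

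Between mature V2R and V1R neurons the members were close. In the control, V1R and V2R cells held 1514 [1455–1575] and 1439 [1341–1542] CPM of Ebf1, 271 and 260 of Ebf2, 171 and 208 of Ebf3, 379 and 382 of Lhx2, 29.6 and 34 of Ldb1 and 202 and 179 of Myt1l. The ratios of V2R over V1R were 0.95 [0.88–1.03], 0.96 [0.79–1.16], 1.22 [0.97–1.52], 1.01 [0.86–1.18], 1.15 [0.64–1.99] and 0.89 [0.70–1.11]. Each of these intervals includes 1. None of the 6 members differed 2-fold, where 12.8% of all genes did. In the P10 mutant, too, 0 of 6 did (8.01% of all genes), although Ebf1 was at 0.86 [0.78–0.96] and Lhx2 at 0.77 [0.62–0.94]. As means over cells, Ebf3 (1.06 pooled) and Ldb1 (1.49 pooled) were at 2.11 and 2.03 there.

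The 3-month mutant showed wider differences, with V2R cells lower in Ebf1 (0.83 [0.74–0.93]), Ebf2 (0.58 [0.45–0.74]) and Lhx2 (0.62 [0.48–0.80]). Its Ebf2 levels were 353 CPM in 19 V1R cells and 205 in 34 V2R cells. Its 1 member past 2-fold was Ldb1 at 0.40 [0.19–0.81], on 14 and 22 UMIs, against 10.8% of all genes, and with marker gates that ratio was 0.55.

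The branches of postmitotic precursors and immature neurons were separated by Meis2, a homeobox gene of apical cells, in cells with at least 3000 UMIs (apical from 3 Meis2 UMIs, basal up to 1). The limits were set after the values of Meis2 had been seen. Most other markers of the branches, which the split did not use, followed it in late immature neurons, but not all. Bcl11b, a listed basal marker, was higher in apical than in basal cells, at 357 against 233 CPM (control) and 375 against 275 (P10 mutant). Tfap2e was at 0 CPM in apical against 216 in basal cells of the control, but at 442 against 324 in the P10 mutant. In late immature neurons of the control, apical cells held 1605 CPM of Gnai2 and 4736 of summed V1R receptor RNA, against 174 and 767 in basal cells. Basal cells held 616 CPM of Gnao1 and 1641 of summed V2R receptor RNA, against 117 and 24.7 in apical cells. In the P10 mutant basal late immature cells held 34.8 CPM of V1R and 2504 of V2R receptor RNA. The part of the V1R receptor RNA in the ratios of the control was not tested.

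In control postmitotic precursors (25 apical, 21 basal) basal cells held more Lhx2 than apical cells, 2691 against 1933 CPM (ratio 1.39 [1.25–1.55]), more Ebf2, 704 against 540 (1.30 [1.05–1.62]), and less Ebf1, 1318 against 1720 (0.77 [0.67–0.88]). Ebf3 (0.89 [0.70–1.12]), Ldb1 (1.43 [0.81–2.53]) and Myt1l (1.18 [0.99–1.41]) had intervals that include 1. None of the 6 passed 2-fold, where 9.24% of all genes did. Other branch markers separated these precursors less than late immature cells. Apical and basal ones held 590 and 459 CPM of Gnai2, 176 and 178 of Robo2, 130 and 142 of Cnpy1 and 0 and 3.96 of Tfap2e. Nrp2 (201 and 51.4), Gnao1 (318 and 447) and Bcl11b (161 and 226) followed the split. Basal here means few Meis2 UMIs, and the part of stage in these ratios was not tested. In control early immature neurons (21 apical, 25 basal), 5 of 6 intervals include 1 and Myt1l was at 1.20 [1.04–1.39] (0 of 6 past 2-fold, 10.7% of all genes).

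In late immature neurons several members were lower in basal than in apical cells. In the control (99 apical, 64 basal), basal cells held 406 CPM of Myt1l against 906 in apical cells (0.45 [0.40–0.51]), 332 against 586 of Ebf2 (0.57 [0.49–0.65]) and 268 against 458 of Ebf3 (0.59 [0.50–0.68]). Lhx2 was at 794 against 986 (0.81 [0.73–0.88]) and Ebf1 at 2453 against 2815 (0.87 [0.83–0.92]). The P10 mutant (44 apical, 18 basal) had the same direction for Myt1l, 425 against 683 CPM (0.62 [0.51–0.76]), Ebf2, 401 against 654 (0.61 [0.50–0.75]) and Ebf3, 317 against 536 (0.59 [0.47–0.75]), while Ebf1 (0.99 [0.90–1.08]) and Lhx2 (0.92 [0.77–1.08]) had intervals that include 1. Only Myt1l in the control passed 2-fold, 1 of 6 with 11.4% of all genes, and in the P10 mutant 0 of 6 did with 12.9%. At the 5% mitochondrial limit Myt1l in the control was at 0.52.

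Over early and late immature neurons together, 0 of 6 members passed 2-fold between the branches in each P10 library (10.0% of all genes in the control, 11.1% in the mutant). Here early cells made up 25 of 89 basal and 21 of 120 apical cells in the control, and 17 of 35 basal and 3 of 47 apical cells in the P10 mutant, so the pooled values mix stage with branch. The 3-month mutant had 5 basal immature cells and gave no branch comparison.

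**Figure D3:**
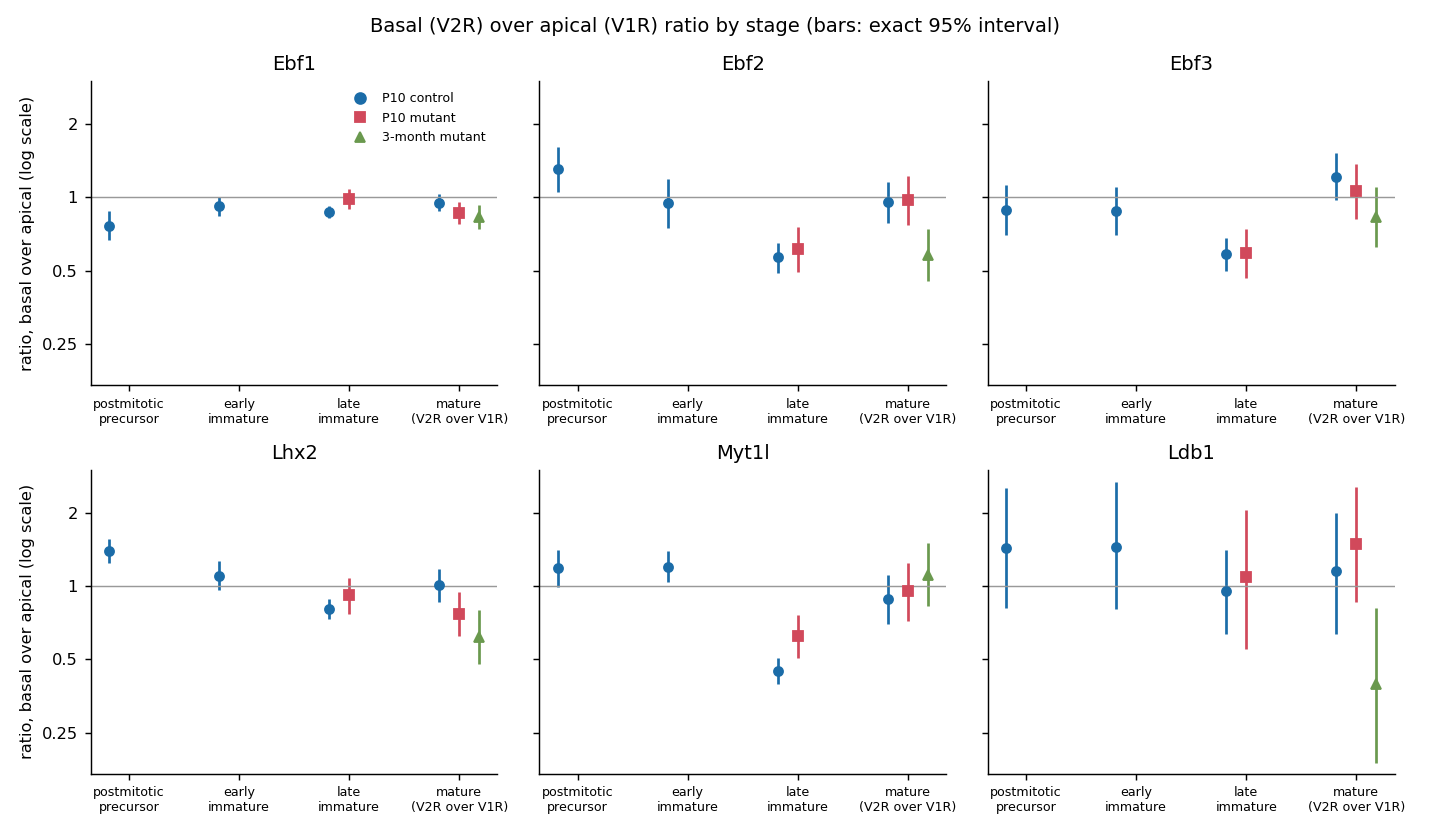
Ratio of basal over apical cells (log scale, exact 95% intervals) for 6 members at 4 steps, from postmitotic precursors to mature V2R over V1R neurons, by library. In late immature neurons Myt1l, Ebf2 and Ebf3 lie below 1 in both P10 libraries (0.45 to 0.62), and in mature cells of the control each interval includes 1.

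The P10 mutant and the P10 control differed little in these genes. In precursors, which precede the transgene's driver, the 6 ratios of mutant over control ran from 0.95 to 1.12, each interval included 1, and none passed 2-fold (6.54% of all genes). In immature neurons Ebf1 (0.87 [0.84–0.91]) and Lhx2 (0.87 [0.81–0.93]) were lower and Ebf2 (1.22 [1.12–1.34]) and Ebf3 (1.23 [1.12–1.35]) higher in the mutant, with 0 of 6 past 2-fold (5.22% of all genes). Ldb1 (0.97 [0.74–1.27]) and Myt1l (0.96 [0.89–1.03]) had intervals that include 1.

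In V1R cells, where the mutant carried Tfap2e RNA, Ebf1 was at 1688 against 1514 CPM (1.11 [1.04–1.20]), Ebf3 at 235 against 171 (1.38 [1.13–1.67]) and Lhx2 at 450 against 379 (1.19 [1.03–1.36]). Ebf2 was at 1.13 [0.95–1.33], Myt1l at 1.11 [0.91–1.34] and Ldb1 at 1.57 [0.98–2.50], and 0 of 6 passed 2-fold (7.72% of all genes). In V2R cells Ebf1 (1.01), Ebf2 (1.15), Ebf3 (1.20), Lhx2 (0.91) and Myt1l (1.19) had intervals that include 1, although Ebf3 was at 2.13 as a mean over cells. Ldb1 was the 1 member of 6 past 2-fold there (5.62% of all genes), at 2.04 [1.09–3.87] on 27 and 19 UMIs, and 1.87 with marker gates. In progenitors 4 members had enough UMIs and 1 passed 2-fold (5.60% of all genes), Lhx2 at 2.21 [1.59–3.08], which was 1.54 when the cell with the most Lhx2 UMIs was left out in each of the 2 libraries, and 1.42 as a mean over cells.

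Between the 3-month and the P10 mutant, the pooled level of Lhx2 was lower at 3 months in each of the 4 classes compared, at 0.63 [0.56–0.72] in precursors, 0.70 [0.61–0.81] in immature neurons, 0.71 [0.57–0.88] in V1R and 0.57 [0.45–0.74] in V2R cells. Myt1l was higher in immature neurons (1169 against 803 CPM, 1.46 [1.30–1.63]), lower in precursors (0.72 [0.57–0.90]), and near 1 in V1R (0.84 [0.63–1.12]) and V2R cells (0.98 [0.74–1.31]). Ebf1 was at 0.87 [0.76–1.00], 1.00 [0.93–1.08], 0.81 [0.73–0.90] and 0.78 [0.70–0.87] in the same order of classes. In precursors Ebf2 was at 0.72 and Ebf3 at 0.56 [0.41–0.75].

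The median over all genes tested was itself below 0 on the log2 scale in these comparisons, at −0.17 in precursors, −0.11 in immature and V1R cells and −0.10 in V2R cells, and the Lhx2 ratios were lower than that. No member passed 2-fold in precursors (14.3% of all genes), immature neurons (17.0%) or V1R cells (13.6%), and 1 of 6 did in V2R cells (13.1%), Ldb1 at 0.32 [0.16–0.63] on 14 and 27 UMIs. As means over cells, Ebf3 (0.77 pooled) and Lhx2 also passed it in V2R cells, at 0.46 and 0.48. The immature neurons of the 3-month library were 2 early and 29 late cells, against 22 and 99 in the P10 mutant. Within late immature neurons Lhx2 was at 594 CPM [514–683] at 3 months against 701 [652–754]. Their apical cells were not lower, at 825 [707–957] against 727 [666–793], while basal ones (5 cells at 3 months) were at 189 against 665. The part of stage and branch in the pooled Lhx2 ratio was not tested.

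**Figure D4:**
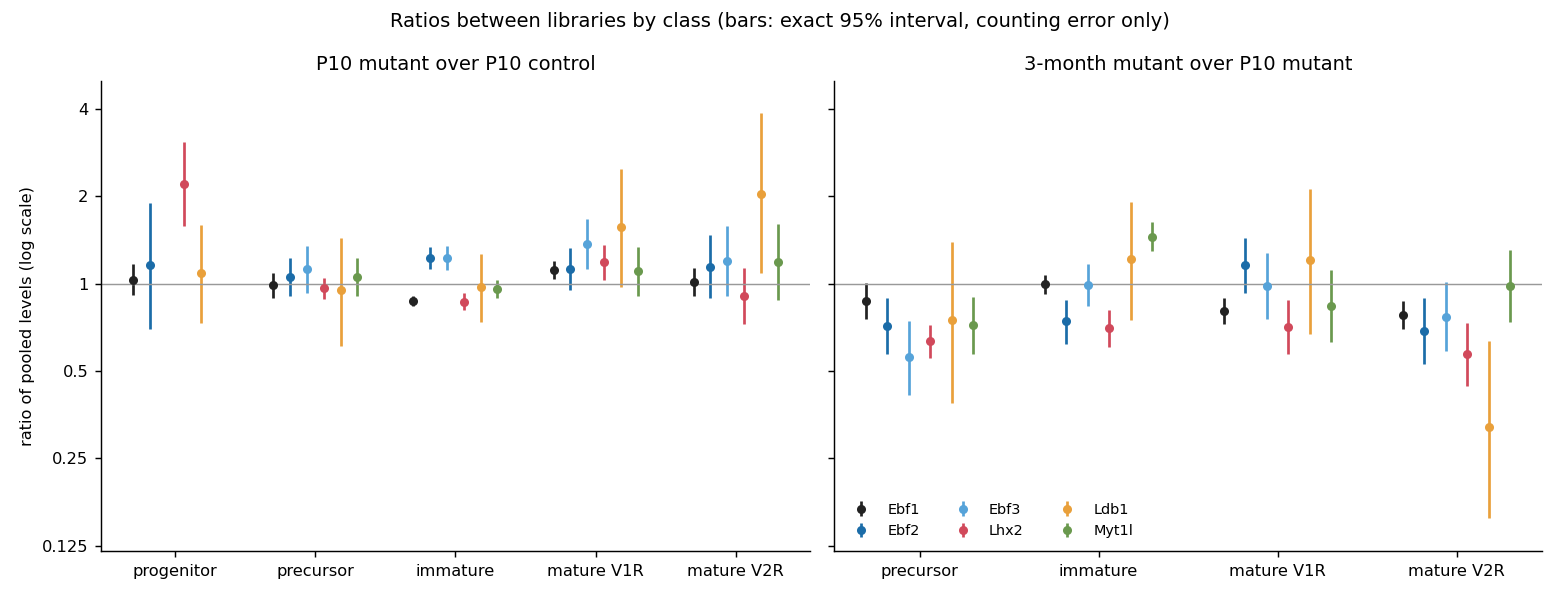
Ratio of pooled levels (log scale, exact 95% intervals) of 6 members between libraries within each class, on the left P10 mutant over P10 control and on the right 3-month over P10 mutant, where at least 20 UMIs were counted. Most points lie between 0.5 and 2, and Lhx2 lies below 1 in all 4 classes on the right (0.57 to 0.71), with early and late immature neurons pooled.

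Outside the neuronal lineage Ebf1 came near its level in mature VSNs in pericyte-like and B-lineage cells. Pericyte-like cells held 1282 CPM [1176–1395] (control), 1478 [1344–1622] (P10 mutant) and 1450 [1288–1627] (3-month mutant). The 74 B precursor-like cells of each P10 library held 1650 [1572–1730] in the control and 1353 [1296–1413] in the mutant. B-like cells without precursor genes held 765 [589–977] at P10 (11 cells) and 1092 [912–1296] at 3 months (22 cells) in the mutant. Smooth muscle-like cells came next, at 381, 386 and 368 CPM, then endothelial-like cells at 243, 237 and 209, fibroblast-like cells at 231, 212 and 150, and osteoblast-like cells at 119, 124 and 83.8. In the control, the intervals of endothelial-like [222–266] and fibroblast-like cells [216–248] overlap.

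Immune cells other than B-lineage cells held 17.1, 7.25 and 7.68 CPM of Ebf1, which serves as background. Over that background pericyte-like cells were 74.9-fold [60.1–94.3], 204-fold [153–277] and 189-fold [149–242] higher, fibroblast-like cells 13.5-fold, 29.3-fold and 19.5-fold, and immature neurons 162-fold [132–201], 334-fold [254–448] and 315-fold [253–396]. Plasma cell-like cells of the 3-month mutant were at 23.7 CPM. Lineage classes held 58.5%, 45.0% and 39.6% of the Ebf1 UMIs of all kept cells, against 79.5%, 77.5% and 68.5% of those of Lhx2 and 78.5%, 74.9% and 73.7% of those of Myt1l.

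B precursor-like cells were named from Vpreb1, Vpreb3, Igll1, Rag1 and Dntt, so these genes describe the class and do not test it. In the control they held 746 CPM of Vpreb1 and 471 of Igll1, the surrogate light chain genes, and 210 of Pax5, the B-lineage commitment factor. B-like cells of the P10 mutant, with 0 UMIs of Vpreb1 and Igll1, held 370 CPM of Pax5. Of the 10 B-lineage genes listed, 0 had enough UMIs for a comparison in the neuronal lineage. Pericyte-like cells held 686 CPM of Pdgfrb, a growth factor receptor gene among their naming markers, and 422 of Prrx1, a mesenchymal homeobox gene. Fibroblast-like cells held 542 of Prrx1 and 480 of Twist1. Of the 10 stromal genes, only Pparg had enough UMIs in the neuronal lineage of the control.

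Ebf2 and Ebf3 each stood out in another vascular class. Ebf2 was at 47.7 [29.1–73.6], 56.3 [32.8–90.2] and 44.9 [20.5–85.1] CPM in pericyte-like cells, 16.4-fold [8.06–33.8], 28.9-fold [13.4–63.3] and 74.3-fold [24.6–235] above immune cells. Ebf3 was at 74.1 [62.5–87.1], 103 [92.7–115] and 81.9 [72.6–92.1] CPM in endothelial-like cells, 21.4-fold [13.2–36.6], 82.4-fold [42.9–182] and 59.4-fold [35.9–105] above immune cells. After thinning, 15.7%, 15.7% and 15.2% of endothelial-like cells held an Ebf3 UMI, against 0.505%, 0.500% and 0.356% of immune cells. In B precursor-like cells Ebf1 gave 99.6% of the Ebf UMIs of the control, and in pericyte-like cells 94.7%.

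Lhx2 and Myt1l were low in the named non-neuronal classes, at no more than 13.9 CPM for Lhx2 (control neutrophil-like cells, 10 UMIs) and 7.46 for Myt1l (monocyte-like cells of the P10 mutant, 2 UMIs). Sustentacular-like cells lay above the pooled immune cells in Lhx2, at 13.5, 8.67 and 2.76 CPM (2.32-fold [1.57–3.52], 3.28-fold [1.98–5.69] and 5.33-fold [1.98–16.6]). Their Myt1l was at 6.80, 5.24 and 2.24 CPM, 2.87-fold [1.58–5.66], 2.51-fold [1.40–4.78] and 2.36-fold [0.98–5.83] of that in immune cells. Neutrophil-like cells, a part of those immune cells, were at 13.9, 10.3 and 0 CPM of Lhx2 and 5.56, 5.14 and 1.68 of Myt1l. These ratios thus depend on which immune cells are pooled. Ldb1, by contrast, was found in each class of at least 20 cells, for example at 65.9, 63.4 and 51.6 CPM in endothelial-like, 53.5, 66.8 and 45.3 in fibroblast-like and 31.6, 36.7 and 35.5 in sustentacular-like cells. Only 17.8%, 9.79% and 4.87% of its UMIs lay in the neuronal lineage.

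**Figure D5:**
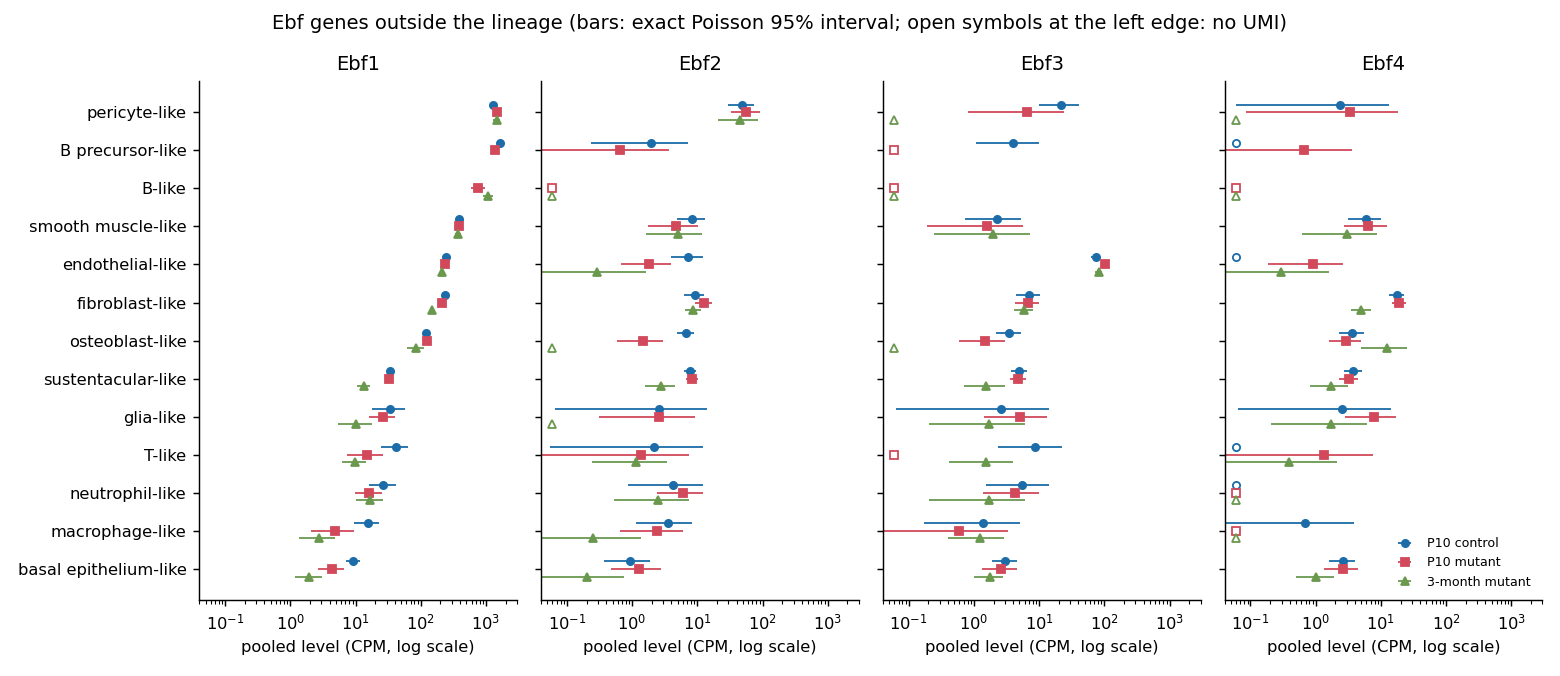
Pooled level (CPM, log scale) of the 4 Ebf genes in 13 named classes outside the neuronal lineage, by library, with exact Poisson 95% intervals, only classes of at least 10 cells, and open symbols at the left edge for classes with no UMI. Ebf1 is above 1200 CPM in pericyte-like and P10 B precursor-like cells, Ebf2 is highest in pericyte-like cells, Ebf3 in endothelial-like cells, and Ebf4 reaches 17.5 and 19 CPM in P10 fibroblast-like cells.

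Ebf4 was scarce in VSNs. Of its 209, 175 and 86 UMIs in kept cells, 12, 4 and 4 lay in the vomeronasal lineage. Control precursors had 0 UMIs, where 3 UMIs would make 2.62 CPM, V1R cells had 2, 0 and 0 and V2R cells had 0 in each library. Apical late immature neurons held 7, 3 and 1 (4.67 [1.88–9.62], 4.22 [0.87–12.3] and 4.71 [0.12–26.3] CPM), against 0, 0 and 1 in basal ones. Fibroblast-like cells held 17.5 [13.4–22.6], 19 [14.7–24.3] and 5.03 [3.44–7.10] CPM, against 0.364, 0.279 and 0.0863 in immune cells.

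The highest Ebf4 levels were in 11 cells of the neuronal clusters that carried at least 2 UMIs of Cnga2, the cyclic nucleotide-gated channel subunit of the main olfactory epithelium. These cells were set apart from VSNs by Cnga2 alone, without use of Ebf4. The 6 control cells held 159 CPM [98.2–243] (21 UMIs), the P10 mutant cell 300 [61.8–876] (3 UMIs) and the 4 cells of the 3-month mutant 130 [67.2–227] (12 UMIs). Counts per cell in the control were 9, 3, 6, 0, 1 and 2. The cell of the P10 mutant held 3, and those of the 3-month mutant 4, 1, 5 and 2. All but 1 of the 11 cells thus had an Ebf4 UMI. They had 0 to 1 UMIs of V1R and 0 to 1 of V2R receptors each, and 4 to 168 UMIs of Stoml3, an olfactory sensory neuron gene. Their Ebf1 level was 1254, 1898 and 1300 CPM, against 1515, 1657 and 1245 in mature VSNs of the same libraries, and Lhx2 was at 370, 300 and 509 CPM.

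Genes of the partner complex of Lhx2 and Ldb1 followed other courses. Of the 11 listed, 6 had enough UMIs precursor over progenitor in the control, with 2 higher (16.3% of all genes), 0 lower (9.63%) and a median log2 ratio of 0.47 (0.11 over all genes). Ssbp2 (34 to 203 CPM) and Ssbp3 (105 to 274), single-stranded DNA-binding proteins that bind Ldb1, were 5.97-fold [4.36–8.32] and 2.60-fold [2.13–3.18] higher, and Ssbp4 (0.75) and Lmo1 (0.91) had the lowest ratios. Immature over precursor, 3 of 7 were higher (15.8% of all genes) and 0 lower (13.9%) (median 0.98, −0.04 over all genes), led by Lmo2, a LIM-only protein, at 241 against 5.24 CPM (46-fold [21–126]), and Ssbp2 (2.88-fold), while Ssbp3 (0.52) and Rlim (0.60) were the lowest. Mature over immature, 0 were higher (13.2% of all genes) and 3 of 7 lower (12.2%) (median −0.56, −0.03 over all genes), with Lmo2 at 0.03 [0.02–0.04] and Lmo4 at 0.14 [0.12–0.16] the lowest and Ssbp4 (1.53) and Lmo1 (1.44) the highest. LIM-only proteins can take the place of LIM homeodomain factors on Ldb1.

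Of the zinc finger genes whose proteins bind EBF, Zfp423 was at 7.08 CPM in control progenitors, 38.4 in precursors (5.43-fold [2.69–12.1]), 20.6 in immature and 10.6 in mature neurons, and Zfp521 had too few UMIs. In late immature neurons of the control Zfp423 was 2.47-fold [1.25–4.95] higher in basal than in apical cells, on 22 and 17 UMIs, with 4.68% of all genes at least 2-fold higher.

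The 9 genes of the Myt family and of its corepressors had 2 higher and 1 lower in control precursors over progenitors (16.3% and 9.63% of all genes, median log2 0.09 against 0.11 over all genes). Myt1 (24.1-fold [9.03–90.5]) and St18 (22.4-fold [9.98–62.4]), the zinc finger paralogs of Myt1l, had the highest ratios, and Rest, the repressor of neuronal genes, the lowest at 0.11 [0.01–0.43] on 2 UMIs in precursors, with Hdac1 next at 0.76. Immature over precursor, 1 of 8 was higher (Rcor1, 2.52-fold) and 4 were lower (15.8% and 13.9% of all genes, median −0.94 against −0.04), with St18 at 0.03 [0.02–0.07] and Rcor2 at 0.11 [0.08–0.15] the lowest. St18 and Myt1 thus were at 3.33 and 15.6 CPM in immature neurons, early and late pooled, against 95.2 and 68.1 in precursors. In the same pooled classes Myt1l was at 835 against 562 CPM. Mature over immature, 0 were higher and 4 of 7 lower (13.2% and 12.2% of all genes, median −1.32 against −0.03), with Hdac2 (0.24) and Myt1 (0.26) the lowest and Hdac1 (1.39) and Sin3a (0.89) the highest.

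The 10 olfactory-type genes, several of which carry known EBF sites, were scarce in precursors of the control. The 8 with enough UMIs were higher in its mature than in its immature neurons. Cells with at least 2 UMIs of Cnga2 had been set apart from the lineage, so the level of Cnga2 was limited by construction. Precursor over progenitor, Rtp2 was at 9.57 [3.38–37.3] and Gng13 at 0.58 [0.20–1.50], and no other had enough UMIs. Immature over precursor, 5 of 7 were higher and 0 lower (15.8% and 13.9% of all genes, median log2 3.08 against −0.04), with Gng13, a G protein gamma subunit, at 179 against 6.11 CPM (29.3-fold [14.1–73.3]), and Omp at 51.2 against 1.75 (29.3-fold [7.98–244]) the highest and Gnal (0.68) and Cnga4 (1.71) the lowest. Mature over immature, 8 of 8 were higher (13.2% of all genes, median 2.37 against −0.03), from 2.81-fold [1.09–8.08] for Adcy3 and 2.88-fold for Ano2 to 8.86-fold for Omp and 11.4-fold [10.4–12.5] for Gng13. Each Ebf gene measured was lower in that same step. Omp, Gng13 and Rtp1 were among the markers used to name mature neurons, so their higher levels there describe the class and do not test it. Gnal, Adcy3, Rtp2 and Stoml3, markers of main olfactory neurons, also stayed among the genes open to clustering. V2R over V1R, 4 of 7 were lower and 0 higher in the control (7.99% and 4.80% of all genes, median −0.99 against −0.00053), with Rtp1, a receptor transport protein, at 28.7 against 545 CPM and Stoml3 at 0 UMIs against 44.4 CPM, and with Ano2 (1.22) and Cnga4 (1.14) the highest, while Ebf1 and Lhx2 had ratios of 0.95 and 1.01. The V1R cells of the P10 mutant were lower than those of the control in 3 of 7 (4.82% of all genes, median −0.31 against −0.0039), Gng13 at 909 against 2557 CPM (0.36 [0.33–0.39]), Rtp1 at 220 against 545 (0.40 [0.34–0.48]) and Stoml3 at 5.63 against 44.4 (0.13 [0.03–0.34]). Lmo1 was 3.25-fold [2.81–3.77] higher in the same comparison, the 1 gene of 6 of the partner complex to be so (2.90% of all genes), at 633 against 195 CPM.

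Of 8 inhibitors of neuronal differentiation, 3 were lower and 0 higher in control precursors over progenitors (9.63% and 16.3% of all genes, median log2 −0.61 against 0.11), Rest (0.11), Hes1 (167 to 21.8 CPM, 0.13 [0.08–0.20]) and Sox2 (408 to 162 CPM, 0.40), while Id2 (1.39) and Hey1 (1.03) were the highest. Sox2 was among the markers used to name progenitors, so its ratio describes these classes and does not test them. Immature over precursor, 4 of 7 were lower and 1 higher (13.9% and 15.8% of all genes, median −1.38 against −0.04), with Hes5 at 0.03 [0.01–0.05] and Sox2 at 0.03 [0.02–0.05] the lowest and Id3 (2.33-fold [1.76–3.14]) and Id2 (1.51) the highest. Mature over immature, 4 of 6 were lower (12.2% of all genes, median −2.22 against −0.03), with Id2 at 0.03 and Id3 at 0.07 the lowest and Sox2 (0.77) and Hes1 (0.74) the highest.

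Across 67 combinations of library and cell class with at least 20 cells, the 3 genes with the level most like each member among 14004 genes were named, by Pearson's r of log2(CPM + 10). These points share libraries, and the r describes them without a test. For Lhx2 they were Foxo6, Ttc9b and Soga3 (r of 0.99 each), for Myt1l Mapk10 (0.99), Actl6b (0.98) and the splicing factor gene Srrm4 (0.98), for Ebf2 Srrm3 (0.97), Mast1 (0.96) and the helix-loop-helix factor gene Nhlh2 (0.96), and for Ebf3 Stox1 (0.95), the syntaxin gene Stx1a (0.95) and Apba2 (0.94). Ebf1 had lower values, Cplx2 (0.86), Myef2 (0.85) and Ppp3cb (0.83), as had Ebf4 with Frem1, Loxl1 and Prr16 (0.84, 0.84 and 0.83) and Ldb1 with Kdm5a, Fubp1 and Thoc2 (0.80, 0.79 and 0.79). Among the members, Lhx2 and Myt1l (0.96), Ebf2 and Lhx2 (0.96) and Ebf2 and Myt1l (0.95) were most alike, and Ebf4 with each of the others lay between −0.14 and 0.17.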

How the data were processed

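The VNO libraries were analysed as deposited. Per the file headers the authors made counts of UMIs per gene and barcode with Cell Ranger, version 4.0.0 at P10 and version 6.0.1 at 3 months, and the submitters' processing notes name mm10 and Seurat 3.2.3. These deposited counts are raw, with no correction for free RNA. The study's own limit was 5% mitochondrial UMIs. The limit of 10% used here kept more neurons, and 5% was tried as an alternative.

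Kept cells were clustered together (Leiden, 2000 variable genes, 30 principal components, resolution 1.5, then neuronal clusters again with 15 components at resolution 2). Clustering left out the 7 members, the receptor genes and those listed genes that are not also cell type markers. Marker lists gave the names, and a class is "-like" where only markers name it. A neuronal sub-cluster with over 15% of the marker level of another type was left out as mixed. B precursor-like and main olfactory-like cells were set apart by at least 2 UMIs of their markers. Rules for mixed cells, branches and Cnga2 were set after seeing the data. Doublet scores came from simulated pairs and removed no cell in the main results. The alternative left out 184, 125 and 388 cells.

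UMIs were pooled per library and class and divided by all UMIs of those cells (CPM). Levels have exact Poisson, ratios conditional exact binomial and shares Clopper-Pearson 95% intervals. A gene was compared where the 2 classes held 20 or more UMIs in sum and 10 or more cells each, and counted as different from 2-fold. The ratio step was tested on simulated data. From the listed genes, the highest and lowest ratios of a comparison were named, with further values where a sentence turns on them, chosen after they were seen. The members and lists were chosen with earlier results of these data known. Python 3.11.15, scipy 1.17.1, scikit-learn 1.9.0 and leidenalg 0.10.2 were used.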

Additional observations from a re-analysis of the deposited data

Results flagged for a closer look

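Basal over apical immature neurons, early and late cells pooled, Ebf1 was at 0.92 (P10 control) and 1.19 (P10 mutant) and Myt1l at 0.74 (control) and 1.33 (mutant), so that both lay on opposite sides of 1 in the P10 libraries. The difference between the libraries was not tested, since each is 1 library. Early immature cells, which hold more Ebf1 and Myt1l than late ones, made up 17 of the 35 basal and 3 of the 47 apical cells of the mutant and 25 of 89 and 21 of 120 of those of the control. Within late immature cells, Myt1l was at 0.45 in the control and 0.62 in the mutant, and Ebf1 at 0.87 and 0.99.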

How the results depend on the processing

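Of 54 stage ratios, 27 passed 2-fold, and the alternatives gave from 18 of 36 (5% mitochondrial limit) to 32 of 63 (no UMI minimum). The number of ratios compared changed with the setting in the other comparisons too. Of 54 V2R over V1R and branch ratios, 2 did. This count was 1 at the 5% mitochondrial limit, 4 with the mean over cells of CPM, 1 with marker gates, 1 with at least 50 UMIs and 7 with no UMI minimum. The genotype comparison had 2 of 28, and 1 at the 5% limit, 1 without the cell with the most UMIs of the gene in each class, 0 with marker gates, 1 with at least 50 UMIs and 7 with no minimum. The age comparison had 1 of 24, and 3 with the mean over cells, 0 with at least 50 UMIs and 2 with no minimum. Ebf1 in control pericyte-like cells (1282 CPM) was at 1444 without the highest doublet scores, 1403 as a mean over cells, 1426 over all other UMIs and 1174 without the cell with the most UMIs. The share of control precursors with an Lhx2 UMI (96.2% of 78 cells) was 71.9% of 89 cells when thinned to 1000 UMIs. The share of control immature neurons with all 3 of Ebf1, Ebf2 and Ebf3 (36.7% of 221 cells) was 74.1% of 266 cells unthinned. The cause was not tested beyond what fewer cells, fewer UMIs or another minimum bring by construction.

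Over 15 settings, 1690 of 1840 ratios lay inside the interval of the main value, 0 of those past 2-fold changed direction, 24 past 2-fold fell under it and 24 others passed it. At the 5% limit only 12, 1 and 7 of the 56, 29 and 10 progenitors and 25, 9 and 28 precursors remained in the P10 control, P10 mutant and 3-month mutant. Some comparisons thus gave no value there, among them precursor over progenitor in the P10 mutant and the 3-month mutant. A few ratios had a denominator of 0 under an alternative and gave no value. No paired analysis was possible because each group is 1 library. Intervals cover counting error only.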

Other observations

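A group of 13, 5 and 7 cells in the neuronal clusters of the P10 control, P10 mutant and 3-month mutant was left unnamed because Malat1, a nuclear noncoding RNA, gave 116949, 181163 and 207430 CPM there, against 29473 in control V1R cells. These cells held 3973 [3372–4650], 6332 [5021–7880] and 2138 [1576–2835] CPM of Ebf1, on 155, 80 and 48 UMIs, while Lhx2 was at 436, 158 and 89.1 CPM.

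The mixed cells, which carried marker RNA of another type beside that of neurons, held 649, 609 and 551 CPM of Ebf1 and 196, 181 and 147 CPM of Lhx2. The 82 shallow unnamed cells of the 3-month mutant held 640 CPM of Ebf1 [485–830] and 157 of Lhx2 [86.0–264].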
